A study of Bos taurus with 20 samples.

Results

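Collagen genes were described across 20 clonal populations of bovine mesenchymal stem cells (MSCs), the stromal progenitor cells of fat tissue. The genes were chosen by symbol alone, as every named gene of the count table whose symbol is COL, a number, A and a number. This rule found 43 genes among 33063 named genes. At least 1 count was found for 42 of them, and 24 passed edgeR's default filter on low counts and were tested, against 12900 genes tested in all.

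Collagens are secreted proteins built of 3 chains that wind into a triple helix, and most chains are named by collagen type (COL1, COL3) and chain number (A1, A2). Fibril-forming types build the fibres of connective tissue, and types IV and VIII build networks. The other classes include beaded filaments, anchoring fibrils, types that sit on the surface of fibrils (FACIT), multiplexins of basement membrane zones and types that span the cell membrane. In adipose tissue, adipocytes and their progenitors lie in a matrix of interstitial fibres, and a basement membrane surrounds each mature adipocyte.

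The cells came from visceral fat of crossbred calves a few months old. They were expanded on plastic, which was coated with bovine gelatine after the first passage, and sorted into single cells. Clones were grown on gelatine-coated plates in medium that held bFGF at 5 ng/ml and FBS at 10%. Conditioned medium from cultures of the same animal was part of it. Adipogenic (A) clones had stained strongly for lipid when an aliquot was differentiated, non-adipogenic (N) clones had not, and RNA was taken from undifferentiated cells of both. The design compared 10 A and 10 N clones, with 1 library per clone. From animals 17 and 20 there was 1 clone of each kind, and from animals 22 and 23 there were 4 of each kind. A clone is written here as animal and clone number (22-5). Each clone is the offspring of 1 cell grown in culture and stands for that cell, not for the fat depot.

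Totals on named genes ranged from 14615493 to 43111345 counts per clone. Levels are given as CPM, the counts of a gene relative to the library size, which edgeR's TMM factors had scaled. Differences are given as log2 fold changes of A over N clones with their standard errors (SE). A count of 0 allows up to 3 counts, which is 0.0764 to 0.216 CPM depending on the clone, and this limit covers counting error only. Levels were not divided by transcript length, so a level is compared between clones and not between genes. Of the 7 MSC markers listed, 0 passed the threshold between A and N clones (edgeR's quasi-likelihood test), 0 reached an unadjusted p under 0.05, and their summed level was 2788 to 5583 CPM in N clones and 3808 to 6290 CPM in A clones. Against its label, N clone 22-5 had NT5E, which encodes the MSC surface protein CD73, at 0.508 CPM and THY1, which encodes CD90, at 0.395 CPM, while the next lowest N clones had 32.1 and 12.2 CPM. N clones 22-5 and 22-9 also stood apart in the summed level of 7 mesothelial markers (keratins, MSLN and others). It was 9198 and 6512 CPM, while the remaining N clones had 8.82 to 277 CPM and A clones 7.73 to 1095 CPM. Keratins weighed most, with KRT8 alone at 4779 CPM in 22-5. Not every marker set these clones apart, since UPK3B was highest in N clone 23-10 (14.9 CPM) and A clone 22-11 (16.5 CPM). Collagen genes whose call or sign changed without these 2 clones are given below in both ways.

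Collagen genes took 3.68% to 5.97% of the counts on named genes in N clones (median 5.06%). In A clones they took 4.29% to 7.77% (median 5.99%). The groups overlapped. The highest share was in A clone 23-108 and the lowest in N clone 22-9. In these bulk libraries, fewer cells expressing a gene and less RNA per cell cannot be told apart.

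**Figure D1:**
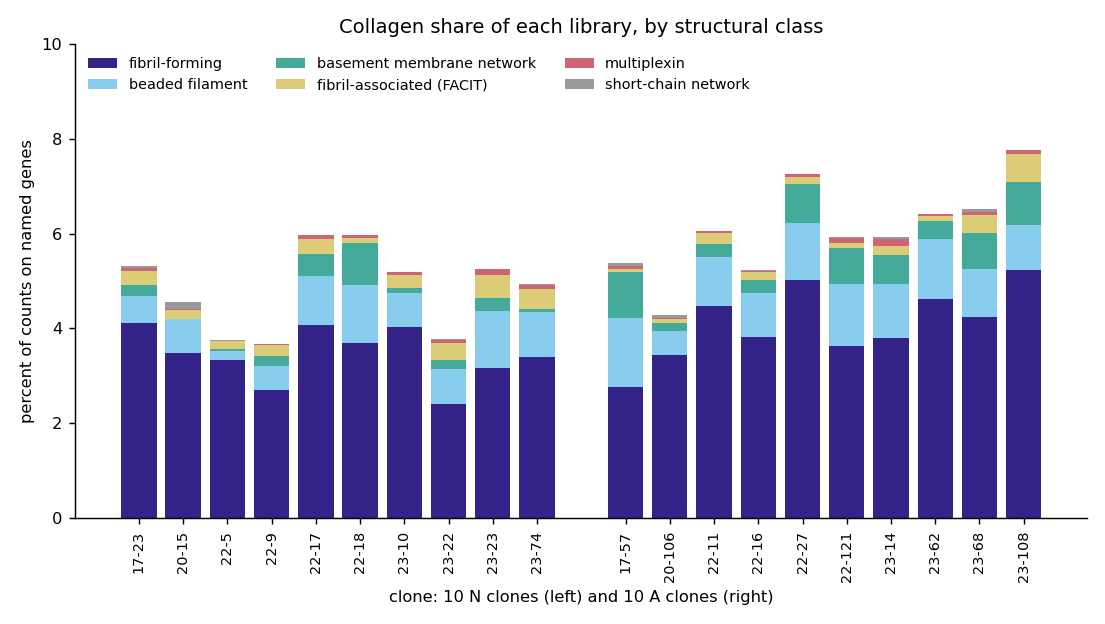
Percent of the counts on named genes that fell on collagen genes (y axis) in each clone (x axis, 10 N clones left and 10 A clones right), stacked by structural class. Anchoring fibril, transmembrane and other collagens are not drawn, since none took over 0.0506% of the collagen counts of a clone. Fibril-forming collagens made up at least 51.2% of the collagen counts in each clone, and clone 20-15 has no visible basement membrane layer.

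COL1A2 and COL1A1, the chains of type I collagen, held 30.7% and 21.8% of all collagen counts, followed by COL3A1 at 8.95% and COL6A1 at 8.13%. Together, the 12 genes with at least 1% each held 97.7% of them. These are shares of counts, in which long transcripts weigh more. Fibril-forming collagens took 60.1% to 88.8% of the collagen counts in N clones and 51.2% to 80.0% in A clones. Basement membrane collagens took 0.00411% to 15.0% in N clones, the lowest in 20-15, and 3.93% to 18.0% in A clones. The SD of the share over clones was 4.36 and 4.46 percentage points for basement membrane collagens in N and A clones, and 8.80 and 7.97 for fibril-forming ones.

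Of the 24 genes tested, 5 were higher in A clones at an adjusted p under 0.05 and 0 were lower (edgeR's quasi-likelihood test with animal as a block and Benjamini-Hochberg adjustment over all genes tested). These were COL18A1, COL5A2, COL5A3, COL3A1 and COL5A1. The share called was 20.8%, while 20.6% of all genes tested were called in either direction, so that collagen genes were called about as often as any gene. In 1 direction at a time, 10.3% of all genes were called higher and 10.3% lower. COL18A1 and COL5A3 were also at least 2-fold higher, a rule that 3.95% of all genes met. Although 0 were called lower, 3 with a negative fold change reached an unadjusted p under 0.05. Among all 12900 genes tested, 4663 reached that level in either direction. DESeq2's Wald test called 7 higher and 3 lower, both with the block and without it. It called 27.3% and 22.1% of all genes in these 2 fits. The median log2 fold change of the 24 genes was 0.53, beside -0.01 over all genes tested, and 17 were positive. In all 4 animals, the mean log2 CPM of the A clones exceeded that of the N clones for 5 of the 24 genes (15.7% of all genes), and it was below for 0 (17.4% of all genes). The 5 were COL4A1, COL4A2, COL5A2, COL6A2 and COL18A1.

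**Figure D2:**
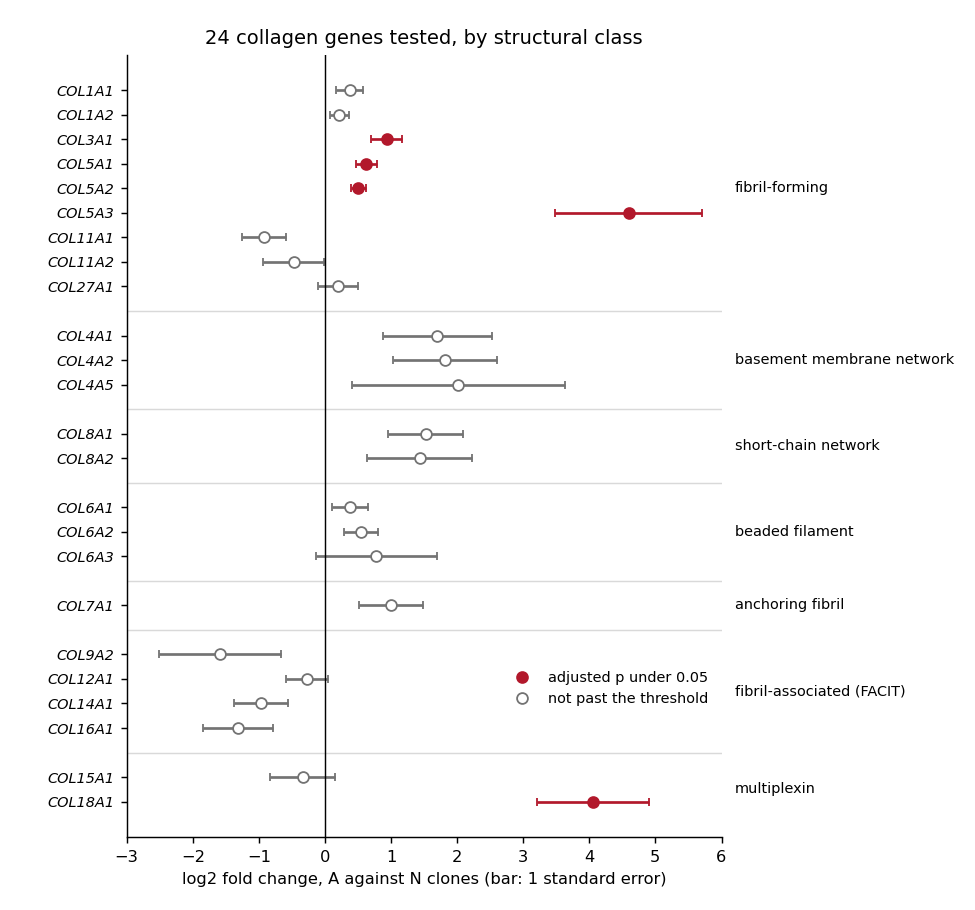
Log2 fold change of A against N clones with 1 standard error (x axis) for the 24 collagen genes tested (y axis), grouped by structural class. Filled red points are the 5 genes at an adjusted p under 0.05, 4 of them fibril-forming. All 4 FACIT collagens lie left of 0, from -1.59 to -0.28, and none of them passed the test.

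Type V collagen is a minor component of type I fibres that starts fibril assembly and limits fibril width, and all 3 of its chains were higher in A clones. COL5A2 ranged from 955 through a median of 1253 to 2028 CPM in N clones and from 1660 through 1895 to 2342 CPM in A clones. The groups overlapped, since N clones 17-23, 20-15 and 23-10 lay within the range of A clones, but 4 A clones were above every N clone. Its log2 fold change came to 0.51 (SE 0.114, adjusted p = 0.00684), and the difference of means was positive in all 4 animals, from 0.21 in animal 20 to 0.80 in animal 22.

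COL5A1, which forms trimers with COL5A2, ranged from 791 through 1268 to 1975 CPM in N clones and from 978 through 2066 to 2918 CPM in A clones. Of the A clones, 6 were above every N clone, and A clone 20-106 was lower than 9 of the N clones. In log2 terms, A clones were higher by 0.63 (SE 0.162, adjusted p = 0.0138). In animal 20, the A clone was below the N clone by a log2 difference of -0.46, whereas animals 17, 22 and 23 gave 0.45, 0.94 and 0.63.

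COL5A3, a less common type V chain, was at 0 to 4.96 CPM (median 0.354) in N clones and at 2.60 to 174 CPM (median 20.7) in A clones. All A clones but 20-106 were above every N clone, and A clone 22-27 was the highest. The log2 fold change was 4.59 (SE 1.11, adjusted p = 0.00999), and it rested on few counts in N clones, 306 in all 10 against 5939 in the A clones. N clones 17-23, 20-15 and 23-10, where COL5A2 was high, also held the highest COL5A3 among N clones, at 4.96, 4.79 and 4.72 CPM. In the animals with 1 clone a group, COL5A3 differed by 2.70 in animal 17 and by -0.86 in animal 20.

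COL3A1 encodes type III collagen, which forms thin fibres with type I in soft tissues. It ranged from 1652 through 3009 to 7505 CPM in N clones and from 4506 through 7032 to 8919 CPM in A clones. The groups overlapped, with 1 A clone (22-11) above every N clone, and N clones 20-15, 17-23 and 23-10 lay within the A range. The fit gave a log2 fold change of 0.93 (SE 0.236, adjusted p = 0.0126). The difference lay in animals 22 and 23 (1.52 and 1.01), while animals 17 and 20 gave -0.35 and -0.06. COL3A1 and COL5A2 are next to each other among protein-coding genes of the RefSeq table, on chromosome 2, and both were called.

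COL18A1 encodes type XVIII collagen, a basement membrane multiplexin whose C-terminal fragment is endostatin. It ranged from 0.189 through 3.82 to 35.9 CPM in N clones and from 7.94 through 109 to 500 CPM in A clones. All A clones but 20-106 were above every N clone, and the highest N clones were 23-10 and 22-9. For COL18A1 the log2 fold change was 4.05 (SE 0.847, adjusted p = 0.00492). The difference was positive in all 4 animals, from 3.76 to 8.17.

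**Figure D3:**
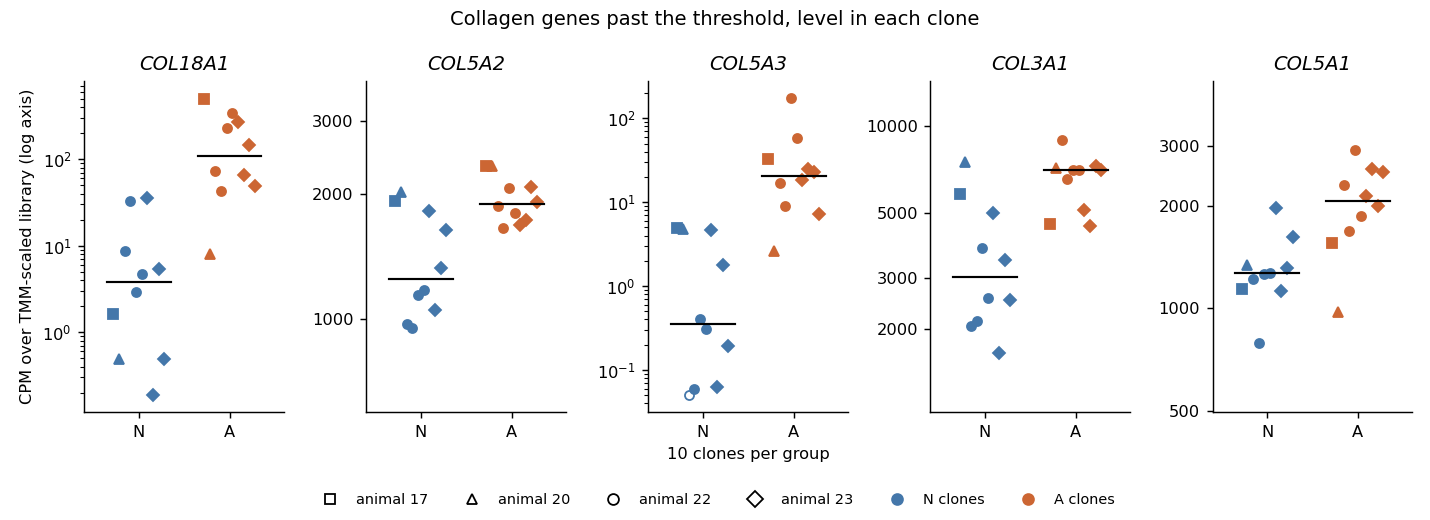
Level in CPM on a log axis (y axis, a scale per panel) of the 5 collagen genes called higher, in each of 10 N and 10 A clones (x axis). Points are clones, symbols give the animal, black lines are group medians, and the open circle for COL5A3 is clone 22-5 with 0 counts. The groups overlap in each panel, and for COL18A1 and COL5A3 only A clone 20-106 reaches into the N range.

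These 5 genes stayed called in all 20 fits that left out 1 clone, with adjusted p between 0.00222 and 0.0272, and without N clones 22-5 and 22-9, with adjusted p between 0.00803 and 0.0479. Leaving out either clone of animal 17 or 20 nearly repeats leaving out that animal, since the animal block takes up its other clone. None of the 5 genes stayed called without animal 22 (adjusted p between 0.0523 and 0.249), without animal 23 (0.0734 to 0.187) or on counts summed per animal and condition (0.240 to 0.521). Without animal 22, the log2 fold change of COL18A1 was 4.27, while COL5A3 fell to 2.76, COL3A1 to 0.55, COL5A1 to 0.41 and COL5A2 to 0.31. Without animal 23 these were 4.36 for COL18A1, 6.10 for COL5A3, 0.94 for COL3A1, 0.63 for COL5A1 and 0.61 for COL5A2. At those settings 11.5%, 0.245% and 0% of all genes tested were called by edgeR. Of the collagen genes 8, 6 and 1 were higher at an unadjusted p under 0.05. In either direction, 3994 of 12816, 2731 of 13071 and 2243 of 14669 genes in all reached that level.

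Clone groups also differed in genes outside the collagen list. The 6 proliferation genes listed were lower in A clones in all 4 animals, 3 of them past the threshold (MKI67, TOP2A and CDK1), with a summed level of 102 to 492 CPM in N and 24.2 to 295 CPM in A clones. Smooth muscle and pericyte markers summed to 1084 to 9970 CPM in N and 4279 to 11038 CPM in A clones, and 2 of the 5 tested were higher in A clones (MYH11, a smooth muscle myosin, and CSPG4, the pericyte protein NG2). The 5 haematopoietic markers summed to 0.649 to 10.4 CPM in N and 2.75 to 11.4 CPM in A clones. Of these, CD68 was the 1 tested and was higher in A clones (log2 fold change 1.06, adjusted p = 0.0157), CSF1R was higher in each of the 10 A clones (0.476 to 2.38 CPM) than in any N clone (at most 0.255 CPM), and the defining marker PTPRC was at most 0.253 CPM in any clone. The 5 endothelial markers summed to 1.07 to 41.3 CPM in N and 5.12 to 23.7 CPM in A clones, and 0 of the 3 tested passed the threshold, although PECAM1 reached an unadjusted p of 0.0166 (log2 fold change 2.49, adjusted p = 0.0675). The endothelial marker CDH5 was at most 0.307 CPM in any clone. The part of these marker levels in the collagen results was not tested.

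The other fibril-forming collagens did not pass the test. COL1A1 ranged from 6279 through 10459 to 15664 CPM in N clones and from 8381 through 13879 to 19812 CPM in A clones, with a log2 fold change of 0.37 (SE 0.197, adjusted p = 0.182). COL1A2 ranged from 11686 through 14891 to 22702 CPM in N clones and from 13045 through 17090 to 23660 CPM in A clones, with a log2 fold change of 0.22 (SE 0.141, adjusted p = 0.271). The groups overlapped nearly throughout for both chains, and among A clones the highest was 2.36 times the lowest for COL1A1 and 1.81 times for COL1A2, while it was 66.9 times the lowest for COL5A3.

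COL11A1, a chain of the minor fibrillar type XI that is related to type V, ranged from 316 through 977 to 1250 CPM in N clones and from 91.4 through 447 to 944 CPM in A clones. This gave a log2 fold change of -0.92 (SE 0.331, adjusted p = 0.0574). A clone 17-57 was the lowest of all clones, and in animal 20 the difference had the other sign (1.08). COL11A1 passed the threshold as lower when animal 20 was left out (adjusted p = 0.0207), in DESeq2's test with the block (adjusted p = 0.0159) and without it, in limma-voom (adjusted p = 0.0496) and in 3 of the 20 fits that left out 1 clone. COL11A2 was at 0.484 to 11.8 CPM in N and 0.784 to 6.63 CPM in A clones (log2 fold change -0.48), and COL27A1, a fibrillar chain of cartilage and other tissues, at 20.8 to 69.2 and 10.5 to 124 CPM (log2 fold change 0.20).

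Type IV collagen is the main network of basement membranes, and COL4A1 and COL4A2 form its most widespread trimer. COL4A1 ranged from 0 through 1267 to 6305 CPM in N clones and from 1295 through 4484 to 6467 CPM in A clones, and COL4A2 from 0.123 through 575 to 3547 CPM and from 617 through 2366 to 4277 CPM. The groups overlapped, and N clone 20-15 stood far below all others, with 0 counts of COL4A1 and 2 of COL4A2, while the next lowest clone, 22-5, had 194 and 115 CPM. The log2 fold changes of 1.70 (SE 0.821, adjusted p = 0.145) and 1.81 (SE 0.792, adjusted p = 0.109) did not pass the threshold.

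The 2 genes are next to each other on chromosome 12 of the RefSeq table and kept a narrow range of ratios over clones. In the 9 other N clones, COL4A1 had 1.68 to 2.40 times the counts of COL4A2, and in A clones 1.49 to 2.14 times, although COL4A1 itself ran from 194 to 6467 CPM over these 19 clones. Within animal 23 alone both passed the threshold as higher in A clones (adjusted p = 0.0389 for COL4A1 and 0.0360 for COL4A2), where 6.22% of all genes tested were called. Within animal 22 alone neither did (adjusted p = 0.858 and 0.880), and N clone 22-18 had more COL4A1 than any A clone of that animal.

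COL4A5 and COL4A6, chains of a second type IV network and neighbours on the X chromosome, showed another pattern. COL4A5 was at 52.7 CPM in N clone 22-5 and 16.7 in 22-9, the clones high in mesothelial markers, and at 0 to 1.23 CPM in the other N clones. In A clones it ranged from 0.327 to 32.5 CPM, with the highest levels in 17-57, 22-11 and 22-16. COL4A5 had a log2 fold change of 2.02 (SE 1.61, adjusted p = 0.379), and without N clones 22-5 and 22-9 it was 6.40 (adjusted p = 0.00713). That fit dropped the 2 N clones with the highest COL4A5, so a larger fold change followed from the choice of clones. A clones 22-11 and 22-16, with mesothelial sums of 1095 and 939 CPM and COL4A5 at 27.0 and 15.8 CPM, were kept.

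COL4A6 did not pass the filter, but its counts lay in the same clones. It had 119 counts in N clone 22-5, 33 in 22-9, 151 in A clone 22-11, 40 in 22-16 and 37 in 17-57, and at most 13 in any other clone. COL4A3 and COL4A4, a further pair of neighbours on chromosome 2 and chains of the kidney type network, were low. COL4A3 had at most 37 counts in any clone. COL4A4 had 106 counts in N clone 22-17, 47 in 22-18, 42 in 23-22, 21 in 22-9 and 7 in 23-74, none in the other N clones and at most 2 in an A clone.

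Type VI collagen forms beaded filaments around cells from 1 COL6A1, 1 COL6A2 and usually 1 COL6A3 chain. COL6A1 ranged from 872 through 3658 to 6827 CPM in N clones and from 3161 through 4968 to 8156 CPM in A clones, with a log2 fold change of 0.37 (SE 0.270, adjusted p = 0.328). COL6A2 ranged from 770 through 2861 to 5119 CPM and from 2606 through 4444 to 5854 CPM, with a log2 fold change of 0.55 (SE 0.255, adjusted p = 0.132). N clone 22-5 was the lowest for both and the groups overlapped.

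COL6A3 varied more. It ranged from 24.8 through 642 to 1950 CPM in N clones and from 0.0490 through 2073 to 3204 CPM in A clones, and 6 A clones were above every N clone. A clone 20-106 had 1 count of COL6A3, while the next lowest A clone, 23-108, had 374 CPM, and COL6A1 and COL6A2 in 20-106 were at 3161 and 2606 CPM. N clones 22-5 and 17-23 were at 24.8 and 86.0 CPM. The log2 fold change was 0.78 (SE 0.919, adjusted p = 0.569), and the differences ran from -11.72 in animal 20 to 4.63 in animal 17. COL6A5, a rarer type VI chain, had at most 29 counts in any clone.

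**Figure D4:**
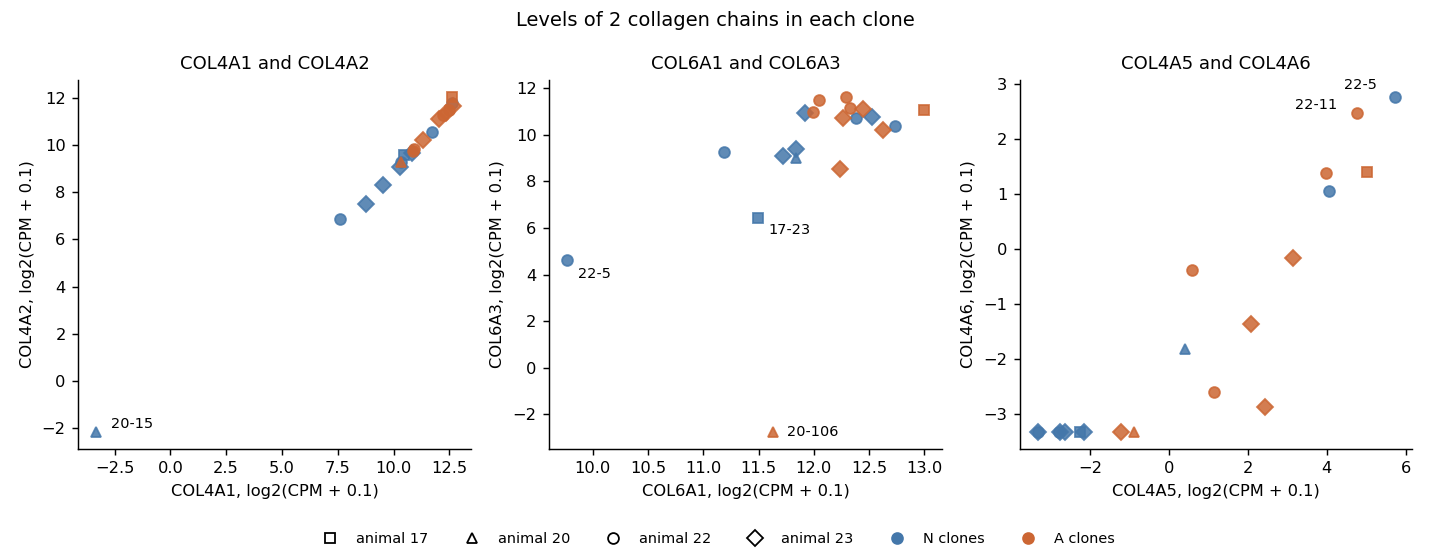
Levels of 2 chains in each clone, on log2(CPM + 0.1) axes, for COL4A1 and COL4A2 (left), COL6A1 and COL6A3 (middle) and COL4A5 and COL4A6 (right). Colours give the group and symbols the animal. Clone 20-15 lies alone at 0 and 0.123 CPM in the left panel, clone 20-106 alone at 0.0490 CPM of COL6A3 in the middle panel, and the highest COL4A5 and COL4A6 levels on the right belong to clones of both groups.

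The ratio of 2 chains of 1 trimer does not depend on the scaling of a library, and it was compared for the 3 pairs with at least 10 counts in every clone. COL1A1 to COL1A2 had a median ratio of 0.718 in N and 0.756 in A clones, a log2 difference of 0.16 (two-sided exact permutation test within animals over 19600 arrangements, p = 0.317, adjusted p = 0.348). COL5A1 to COL5A2 had medians of 1.03 and 1.13, a log2 difference of 0.11 (same exact test, p = 0.348, adjusted p = 0.348), and COL6A1 to COL6A2 had 1.32 and 1.22, a log2 difference of -0.14 (same exact test, p = 0.0657, adjusted p = 0.197). None passed the threshold. N clone 22-5 had the lowest COL1A1 to COL1A2 ratio, 0.332, and A clone 20-106 the lowest COL5A1 to COL5A2 ratio, 0.418.

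Type VIII collagen is a short-chain network collagen of vessel walls and of the cornea. COL8A1 was at 9.84 to 1430 CPM in N clones and 42.4 to 887 CPM in A clones (log2 fold change 1.52, adjusted p = 0.0658), and COL8A2 at 0.307 to 5.19 and 0.245 to 40.9 CPM (log2 fold change 1.43, adjusted p = 0.205). The highest COL8A1 levels were in both clones of animal 20 and in A clone 17-57, and COL8A2 was highest in A clone 17-57. A clones 17-57, 23-14 and 23-68 were high in both chains, at 40.9, 8.91 and 8.35 CPM of COL8A2 and 800, 386 and 595 CPM of COL8A1. Each clone of animal 20 had the lowest COL8A2 of its group, with 5 counts. COL10A1, the hypertrophic cartilage member of this class, had at most 5 counts in any clone.

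FACIT collagens bind to the surface of fibrils and link them to other matrix. Of the 10 in the table, 4 were tested, 0 passed the threshold, 2 reached an unadjusted p under 0.05, and all 4 log2 fold changes were negative. COL12A1 ranged from 582 through 1937 to 4313 CPM in N clones and from 606 through 1445 to 5859 CPM in A clones, with a log2 fold change of -0.28 (SE 0.319, adjusted p = 0.558), and its highest level was in A clone 23-108. COL14A1 was at 98.9 to 625 CPM in N and 38.2 to 295 CPM in A clones (log2 fold change -0.97, adjusted p = 0.0982). COL16A1 was at 22.2 to 258 CPM in N and 12.6 to 99.8 CPM in A clones (log2 fold change -1.32, adjusted p = 0.0881).

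COL14A1 and COL16A1 had their highest levels in N clones of animals 17 and 20. In the A clones of the same animals, COL14A1 was at 38.2 and 107 CPM and COL16A1 at 14.7 and 12.6 CPM. The differences were -3.63 and -2.55 for COL14A1 and -4.07 and -4.34 for COL16A1 in those 2 animals, while animal 22 gave 0.11 and 0.31. Animal 23, with 4 clones a group, gave -1.16 for COL14A1 and -1.72 for COL16A1. Without N clones 22-5 and 22-9, COL16A1 passed the threshold as lower in A clones (log2 fold change -1.76, adjusted p = 0.0417). The clones dropped there were low for N clones, at 22.2 and 58.2 CPM of COL16A1. COL16A1 also passed as lower in animal 23 alone (adjusted p = 0.0498), without animal 22 (0.0195), in edgeR without the block (0.0316), in limma-voom (0.0385) and in DESeq2's test with and without the block. COL14A1 passed in DESeq2's test with the block (adjusted p = 0.0359) and without it.

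COL9A2, a type IX chain known from cartilage, was at 22.9 CPM in N clone 22-5 and 14.0 in 22-9, and at most 1.45 CPM in the 18 other clones. Its log2 fold change of -1.59 (SE 0.920, adjusted p = 0.221) turned to 0.21 without those 2 clones. COL21A1 did not pass the filter. It had 1789 counts (110 CPM) in N clone 20-15, 96 in 17-23, 61 in 22-9 and 6 in 22-5, and at most 3 in any A clone. COL9A3 and COL20A1 had at most 28 and 26 counts, COL19A1 at most 17, COL9A1 a single count in all 20 clones, and COL22A1 none.

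COL7A1 encodes the anchoring fibril collagen that ties the epidermal basement membrane to the dermis. It was at 2.08 to 6.45 CPM in N clones and 2.11 to 31.2 CPM in A clones (log2 fold change 0.997, adjusted p = 0.152), and A clones 22-11 and 22-16 were highest at 31.2 and 24.8 CPM. The same 2 A clones had the highest COL27A1, at 124 and 115 CPM, and the highest mesothelial sums among A clones, at 1095 and 939 CPM. N clones 22-5 and 22-9 had higher mesothelial sums, at 9198 and 6512 CPM. Their COL7A1 was at 4.46 and 2.94 CPM and their COL27A1 at 54.6 and 34.9 CPM. The part of the mesothelial level in these values was not tested. COL15A1, the other multiplexin, was at 26.3 to 1157 CPM in N and 75.5 to 1357 CPM in A clones (log2 fold change -0.34, adjusted p = 0.648).

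**Figure D5:**
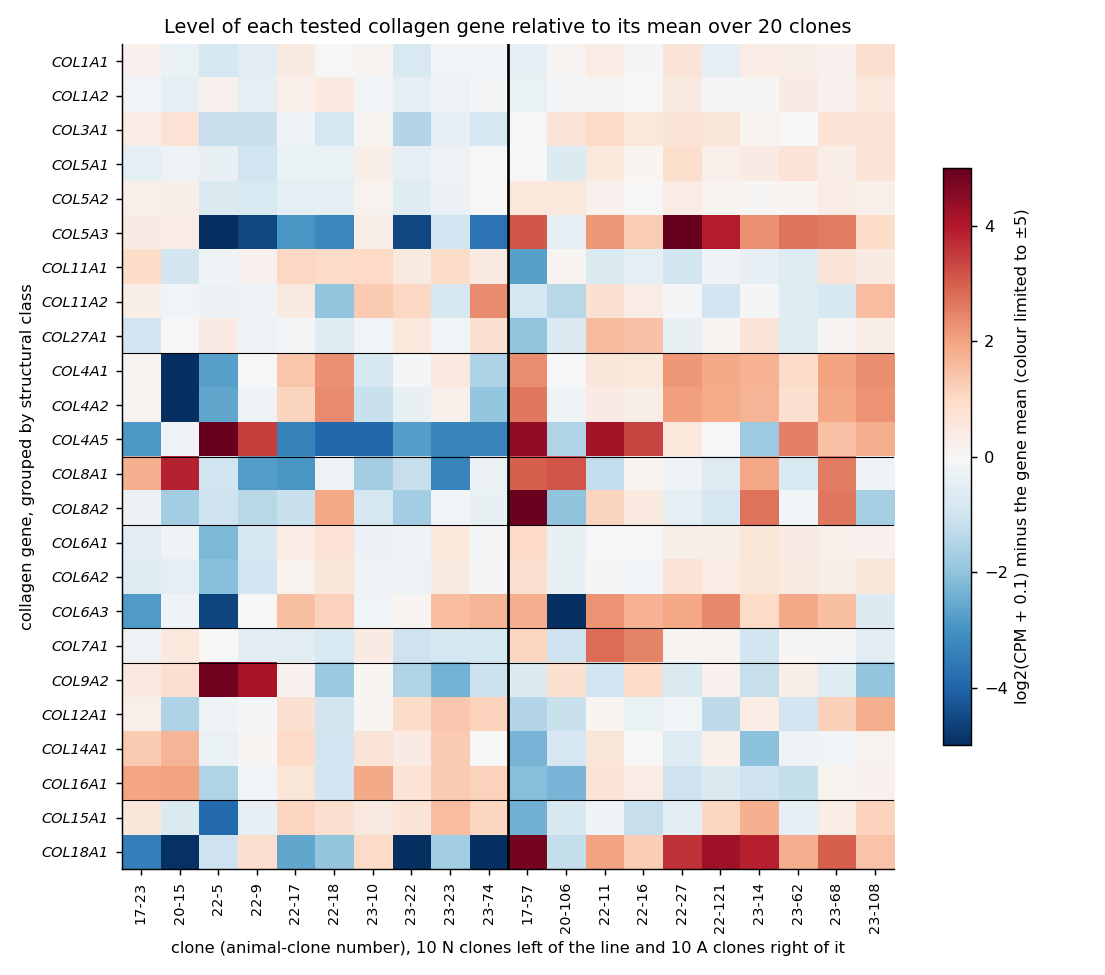
Level of each of the 24 tested collagen genes (y axis, by class) in each clone (x axis, N clones left of the line, A clones right), as log2(CPM + 0.1) minus the mean of the gene over 20 clones. COL1A1 and COL1A2 are pale throughout, whereas COL4A1 and COL4A2 in clone 20-15, COL6A3 in clone 20-106 and COL9A2 in clones 22-5 and 22-9 stand out as single cells of the map.

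The 4 transmembrane collagens did not pass the filter. COL13A1, found at cell contacts and neuromuscular junctions, had 105 counts in A clone 22-11, 48 in 22-27, 38 in 22-16, 37 in 23-62, 16 in 22-121 and 15 in 23-68, at most 3 in the other A clones, and at most 1 in any N clone. COL17A1, the hemidesmosome collagen of epithelia, had at most 42 counts in any clone, COL25A1 at most 17 and COL23A1 at most 7. Fibrillar COL24A1 had 123 and 108 counts in N clones 22-5 and 22-9 and at most 61 elsewhere. COL2A1, the main cartilage collagen, COL26A1 and COL28A1 had at most 3, 3 and 4 counts in any clone. When no filter was used, COL13A1, COL23A1 and COL10A1 were called higher and COL4A4 lower (adjusted p = 0.000346, 0.0200, 0.0435 and 0.0362), with 11.8% of all genes called.

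The difference between A and N clones was compared between animals 22 and 23, the animals with 4 clones a group, as an interaction of condition and animal. Of the 26 collagen genes tested in edgeR, 0 passed the threshold (0.031% of all genes did) and 5 had an unadjusted p under 0.05 (9.06% of all genes). The 5 were COL5A3, COL7A1, COL16A1, COL4A5 and COL24A1, with a smallest adjusted p of 0.412. DESeq2's Wald test also called 0 (0.898% of all genes). In that test, 9 of the 26 had an unadjusted p under 0.05, beside 1343 of 12915 genes in all. The difference between A and N clones was therefore not shown to differ between the 2 animals for any collagen gene.

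Genes that modify, export, process, cross-link or bind collagen were read from a list of 45, of which 44 were in the table and 41 were tested. Higher in A clones were 6, and 1 was lower, together 17.1% of those tested against 20.6% of all genes. BMP1, the protease that removes the C-terminal propeptide of fibrillar collagens, ranged from 107 through 180 to 270 CPM in N clones and from 241 through 344 to 511 CPM in A clones. All A clones but 1 were above every N clone, and the log2 fold change was 1.04 (SE 0.142, adjusted p = 0.000476). ADAMTS14, a protease for the N-terminal propeptide, ranged from 0.0509 through 0.700 to 3.05 CPM in N and from 0 through 11.4 to 42.6 CPM in A clones, with 8 A clones above every N clone and a log2 fold change of 3.77 (adjusted p = 0.00197).

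P4HA3, a catalytic subunit of prolyl 4-hydroxylase, which stabilises the triple helix, had a median of 0.690 CPM in N and 4.47 CPM in A clones (log2 fold change 2.79, adjusted p = 0.00253). LOXL4, a lysyl oxidase-like enzyme of cross-linking, had medians of 93.5 and 238 CPM (log2 fold change 1.81, adjusted p = 0.0331). CREB3L1, a transcription factor of the secretory pathway that acts on collagen genes, had medians of 162 and 229 CPM (log2 fold change 0.60, adjusted p = 0.0278). ITGA11, the alpha chain of a collagen-binding integrin, had medians of 0.0300 and 6.52 CPM (log2 fold change 4.65, adjusted p = 0.0398), although its highest level was in an N clone at 57.2 CPM. For ITGA11, the log2 fold change was 0.63 without the block (adjusted p = 0.765) and 2.54 without animal 22 (adjusted p = 0.375).

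The lower gene was COLGALT1, which adds galactose to hydroxylysine in collagen chains, with medians of 130 and 97.8 CPM (log2 fold change -0.38, adjusted p = 0.0233). The other 34 genes, the main lysyl oxidase LOX and the collagen chaperone SERPINH1 among them, had log2 fold changes between -0.94 and 1.21 and did not pass. By step, 1 of 17 modification and folding genes was higher and 1 lower, and 1 of 6 export, 2 of 6 propeptide removal, 1 of 5 cross-linking and 1 of 7 receptor genes were higher. ITGA11, LOXL4 and CREB3L1 lost their call in some of the 20 fits that left out a clone (called in 8, 12 and 14 of them), and the other 4 kept it in all 20. Without animal 23 and on summed counts none of the 7 pathway genes stayed called, with BMP1 at an adjusted p of 0.0539 and 0.225 and P4HA3 at 0.0659 and 0.240. COLGALT1 also lost its call in limma-voom and without the block (adjusted p = 0.0856).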

How the data were processed

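RNA of 20 undifferentiated clones was sequenced by the authors on an Illumina platform, 1 library per clone, with a directional kit. Per the submitters' processing notes, the authors used Trimmomatic 0.36, STAR 2.5.2b, ARS-UCD1.2 and featureCounts of Subread 1.5.2, and deposited raw counts of unique reads within exons, a whole number per gene and clone. The strand setting and the treatment of overlapping genes are not given in the sources used here, so counts of overlapping and antisense genes are uncertain. The table held 33064 entries. The 1 without a name, with 0.113% to 0.333% of the counts of a clone, was left out, and the number of columns from other series was 0. All 43 collagen symbols matched the RefSeq gene table, which is of another build (ARS-UCD2.0), so it was used for names and neighbours only. No sequences or coordinates were used here.

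From these counts, edgeR 4.0.16 in R 4.3.3 was run on all genes (TMM factors, the default filter for low counts by condition, a robust quasi-likelihood fit with animal as a block, Benjamini-Hochberg adjustment). The thresholds were an adjusted p of 0.05 and, where named, a 2-fold change. A and N clones were paired through their animals. As a check, the mean deviations of both groups within an animal correlated over genes, with coefficients of 0.253 (animal 17), 0.193 (20), 0.241 (22) and 0.440 (23). The interaction was fitted on the 16 clones of animals 22 and 23. Chain ratios of counts + 0.5 were tested by permuting labels within animals. P-values measure the spread between clones, not between animals.

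The text names every collagen gene: with full statistics those past the threshold, with lowest, median and highest level those or any with at least 1% of all collagen counts, and with counts alone those the filter left out. Of the 45 collagen pathway genes it names those past the threshold, and LOX and SERPINH1, which were chosen after values were seen. The members, structural classes, pathway list and marker lists (MSC, haematopoietic, endothelial, mesothelial, smooth muscle and pericyte, osteogenic, chondrogenic, proliferation) were chosen with earlier results of these data known. Of the tested genes of the lists not described with the results, 0 of 1 osteogenic and 0 of 3 chondrogenic genes were called, and 1 of 6 mesothelial genes (MSLN) was lower in A clones. Alternatives were no block, other scalings and filters, DESeq2 1.42.0, limma-voom (limma 3.58.1), counts summed per animal and condition, single animals, and each animal or clone left out. Leaving out N clones 22-5 and 22-9 was added after seeing the data. The edgeR tests were first run on simulated counts, drawn without baseline differences between animals, and the permutation test on random noise. Such runs check the code and do not bear on how far the calls hold in these clones.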

Additional observations from a re-analysis of the deposited data

Results flagged for a closer look

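In groups of 10 clones, a clone at an end of the range stands apart here when its gap to the next clone, divided by the whole range, exceeds Dixon's critical value for a group of that size. This was examined for 56 combinations of a group with a gene, a chain ratio (both on the log2 scale) or the collagen share of the library, and 7 were found. Chance would give about 1 in 20, or 2.8 of 56, if the values were normal and the combinations independent. The combinations share clones and linked genes such as COL4A1 and COL4A2, so the 7 are not read as an excess.

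N clone 20-15 stood apart as the lowest for COL4A1 (gap 0.676, 0 CPM, while the other N clones had 194 to 6305 CPM) and for COL4A2 (gap 0.64, 0.123 CPM against 115 to 3547 CPM). A clone 20-106 stood apart as the lowest for COL6A3 (gap 0.787, 0.0490 CPM against 374 to 3204 CPM). Both clones come from animal 20. In each case the other clone of that animal did not share the low level, with COL4A1 at 1295 and COL4A2 at 617 CPM in A clone 20-106 and COL6A3 at 517 CPM in N clone 20-15.

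N clone 22-5, the clone with the highest mesothelial sum and the lowest NT5E and THY1 among N clones, was the lowest for COL6A1 (gap 0.479, 872 CPM against 2339 to 6827 CPM) and for COL15A1 (gap 0.586, 26.3 CPM against 242 to 1157 CPM). N clone 22-18 was the highest for COL8A2 (gap 0.576, 5.19 CPM against 0.307 to 1.14 CPM). A clone 17-57 was the lowest for COL11A1 (gap 0.539, 91.4 CPM against 322 to 944 CPM).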

How the results depend on the processing

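The 5 collagen genes called higher were also called under DESeq2 size factors, upper-quartile scaling, no filter, no animal block, DESeq2 with and without the block, limma-voom, without animals 17 or 20 and without N clones 22-5 and 22-9. The count higher (5) became 8 without a filter, 3 with at least 10 counts in every clone (COL18A1 and COL5A3 were then not tested), 2 in animal 23 alone (COL4A1 and COL4A2, neither of them among the 5), 4 in animal 22 alone (COL13A1 and 3 of the 5), 7 in DESeq2 with the block (COL4A2 and COL8A1 joined the 5) and without it (COL7A1 and COL8A2 joined), and 0 without animal 22, without animal 23 and on summed counts. The count lower (0) became 1 in edgeR without the replicate block, without a filter, in animal 23 alone, without animal 20, without animal 22 and without N clones 22-5 and 22-9, 2 in limma-voom, and 3 in DESeq2 with and without the block. With no block, 6 collagen genes were higher and 16.8% of all genes were called. That share was 18.9% without animal 20, 11.5% without animal 22, 14.2% without N clones 22-5 and 22-9 and 19.9% in limma-voom. Animal 22 alone gave a share of 1.15% (153 of 13305 genes), and the 10-count filter gave 21.1%. Of the pathway genes, the 6 higher became 0 on summed counts and without animal 23 and 1 in animal 22 alone, with 6, 7 and 6 at an unadjusted p under 0.05 (edgeR). In either direction, 2243 of 14669, 2731 of 13071 and 2478 of 13305 genes in all reached that level. Without N clones 22-5 and 22-9, 4 pathway genes were higher, with 14.2% of all genes called. The 1 lower became 0 without the block in edgeR and DESeq2, in limma-voom, on summed counts, in animals 22 or 23 alone and without animal 23, where at most 2 had an unadjusted p under 0.05, and 2 without animal 22 and without N clones 22-5 and 22-9.

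Log2 fold changes that changed sign were COL27A1 on summed counts (-0.14), in animal 23 alone (-0.10) and without animal 22 (-0.35), COL4A5 without animal 23 (-0.11), and COL9A2 without N clones 22-5 and 22-9 (0.21). In animal 22 alone these were COL16A1 (0.25), COL8A2 (-0.13), COL1A2 (-0.053), COL14A1 (0.012), COL11A2 (0.47) and COL4A5 (-0.58). None of these genes was past the threshold in the reported fit, and the cause was not tested. Leaving out 1 clone gave 5 to 9 collagen genes higher and 0 to 2 lower, and 3 to 7 pathway genes higher and 1 to 2 lower. The 9 came without N clone 22-18, where COL4A2, COL6A2, COL8A1 and COL8A2 joined the 5, and COL14A1 and COL16A1 were lower. Collagens were also lower by 1 without N clones 20-15 or 22-5 or A clones 20-106 or 23-68. The 3 came without N clones 22-9 or 23-22 or A clone 22-27, and 2 pathway genes were lower without N clones 22-5 or 22-18 or A clone 22-11. Chain ratios and the interaction kept their side of the threshold in every alternative run.

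Low counts limit COL5A3, COL8A2, COL9A2 and the genes the filter left out. Animals 17 and 20 give no spread within an animal, and with 4 animals the summed counts leave few degrees of freedom.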
